A study of Mus musculus with 6 samples.

Results

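The genes described here encode proteins that detect foreign or misplaced nucleic acid inside the cell, or that set how much of it is detected. The 10 genes were taken by name from the deposited gene table, which holds 54532 genes. They are Ddx58 (RIG-I), Ifih1 (MDA5), Dhx58 (LGP2), Mavs, Tlr3, Zbp1, Eif2ak2 (PKR), Adar, Trex1 and Aim2. Not all are cytosolic sensors in the strict sense, because TLR3 faces the endosome, MAVS is an adaptor on mitochondria, and ADAR and TREX1 modify or remove the nucleic acid.

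RNA was sequenced from cardiosphere-derived cells of the ventricular epicardium of C57BL/6 mice. By the study's methods, cells growing out of epicardial explants were reseeded to form cardiospheres. The detached cardiospheres were then replated and expanded as a monolayer. The cells had been immortalized with a lentivirus carrying human TERT and selected with puromycin, and both groups carried this transgene and were used at passage 30. The 3 control libraries came from cells without induction. The 3 induced libraries came from cells given 10 µM 5-azacytidine, an inhibitor of DNA methylation, for 3 days and then, by the labels, kept for 4 weeks in IMDM containing 2% FBS. The study's methods give another medium and a shorter period. Drug, serum and time in culture differed together, so their parts cannot be told apart. The labels name 3 samples per group but do not call them separate cultures, so the p-values measure only the spread between these samples. For sequencing, the study's methods state 2 biological replicates per condition, while its figure legends give n = 3.

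Double-stranded RNA is the common ligand of most of these proteins. RIG-I and MDA5 are cytosolic helicases that bind it and pass the signal to MAVS, which activates the kinase TBK1 and the transcription factors IRF3 and IRF7, and through them the genes of type I interferon. Interferon acts back through JAK kinases and a factor complex that includes STAT2 and IRF9, which binds the interferon-stimulated response element (ISRE) in promoters, many of them promoters of the sensors. Inhibitors of DNA methylation are known to raise double-stranded RNA from endogenous retroelements in some cell types.

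Total counts were 19041133 to 19823369 reads per library. Of the 14246 genes tested with edgeR (quasi-likelihood, p-values adjusted after Benjamini and Hochberg), 64.8% passed an adjusted p of 0.05. Of those tested, 32.6% were higher and 32.2% lower in induced cells. The 9 epicardial and mesenchymal markers were all read, and all were called. In CPM (counts relative to the TMM-scaled library size) they summed to 8356 to 8722 in control and 7286 to 7938 in induced libraries, mostly from Col1a1 (7440 ± 170 and 5786 ± 284 CPM, SD, n = 3). Of the epicardial markers, Upk3b, Tcf21 and Wt1 rose by 1.89, 1.49 and 1.34 on the log2 scale, while Tbx18 was lower (-0.33). Of the other markers in this list, Thy1 and Eng were higher, and Pdgfra (-0.73), Ly6a (-0.57) and Col1a1 (-0.36) were lower. Leukocyte markers summed to 27.4 to 30.3 CPM in control and 54.1 to 61.8 CPM in induced libraries. Of those 13 markers, Ptprc, Cd52, Tyrobp, Itgam, Adgre1 and Cd3e had 0 reads in all 6 libraries, although Itgam shares 68.7% of its exon bases with another gene. Lyz2, Cd68 and Fcer1g were higher and Csf1r lower in induced cells. The part of the cell type markers that moved in the sensor results was not tested. Cardiomyocyte markers summed to at most 2.88 CPM and endothelial markers to at most 0.943 CPM.

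Of the 10 sensor genes, 9 passed the filter on low counts and 1, Trex1, did not. Induced cells had more mRNA of 7 of them, Ddx58, Ifih1, Dhx58, Tlr3, Zbp1, Eif2ak2 and Adar, and the libraries of the groups did not overlap for any of the 7. Among all genes tested, 34.1% were higher without overlap. None was lower, and Mavs and Aim2 were not called. The called differences ran from 0.85 to 2.02 on the log2 scale. The 7 genes are 77.8% of the 9 tested, against 32.6% higher among all genes tested. For 4 of them, Ifih1, Dhx58, Tlr3 and Zbp1, the change was at least 2-fold, a rise seen in 9.29% of all genes tested. This count was 1, Dhx58, with limma on log2(FPKM + 1). The median log2 difference over the 9 tested sensors was 0.90, against -0.01 over all genes tested. In bulk RNA, more cells of a type and more RNA per cell cannot be told apart.

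**Figure D1:**
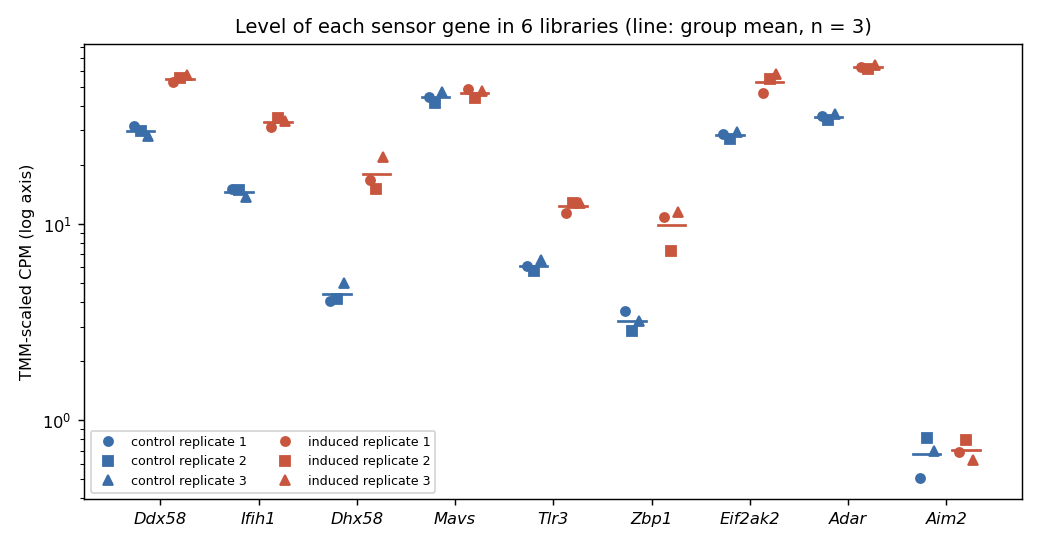
TMM-scaled CPM of the 9 tested sensor genes in every library (1 symbol per replicate, log axis) with a line at the group mean, control in blue and induced in red. The points of the groups lie apart for 7 genes and overlap for Mavs and Aim2. Trex1, with 0 reads, is not drawn.

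Promoter sequences were searched for the ISRE. RefSeq windows on GRCm38.p6 from 250 bases before to 50 bases after a transcription start were available for 8 of the 10 genes, in 11 windows, and Dhx58 and Zbp1 had none here. An ISRE-like motif was searched as GAAANNGAAA on both strands. It occurred in 3.44% of all 32851 windows, and in windows of 3 sensors, Ifih1, Ddx58 and Eif2ak2. The sequences are printed in the direction of the gene, 5′ to 3′, with the match in capitals, because they are the only sensor windows that hold it.
Ifih1, chr2:62646206-62646235, minus strand: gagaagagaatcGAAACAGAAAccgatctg
Ddx58, chr4:40239804-40239833, minus strand: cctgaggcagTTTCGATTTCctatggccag
Eif2ak2, chr17:78882535-78882564, minus strand: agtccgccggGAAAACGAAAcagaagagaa
In Ddx58 the motif reads on the opposite strand. All 3 matches lie just downstream of the start, within the first bases of the transcript, at positions 33 to 42 for Ifih1, 3 to 12 for Ddx58 and 19 to 28 for Eif2ak2. A GAS-like motif, TTCNNNGAA, the type of site bound by STAT dimers, which reads the same on both strands, was in 8.30% of all windows and in those of 2 sensors, Eif2ak2 and Adar. A match describes the letters only, and binding was not measured.

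The induced cells had received an inhibitor of CpG methylation, so the CpG sites of the promoters are also shown. Methylation was not measured here. The 250 bases before the start are printed for 2 sensors that rose and the 2 that were not called, with each CpG in capitals.
Ifih1, chr2:62646256-62646505, minus strand: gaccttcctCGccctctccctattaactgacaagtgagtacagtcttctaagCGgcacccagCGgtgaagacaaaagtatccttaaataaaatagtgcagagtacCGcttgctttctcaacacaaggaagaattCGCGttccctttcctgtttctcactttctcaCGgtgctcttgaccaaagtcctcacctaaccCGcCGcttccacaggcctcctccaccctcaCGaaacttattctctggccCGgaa
Ddx58, chr4:40239826-40240075, minus strand: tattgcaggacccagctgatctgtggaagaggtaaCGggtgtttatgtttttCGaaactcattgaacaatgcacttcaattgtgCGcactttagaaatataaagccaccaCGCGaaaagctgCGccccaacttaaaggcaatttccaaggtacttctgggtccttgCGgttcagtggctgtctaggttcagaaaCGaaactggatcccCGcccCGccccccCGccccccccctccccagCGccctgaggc
Mavs, chr2:131233813-131234062, plus strand: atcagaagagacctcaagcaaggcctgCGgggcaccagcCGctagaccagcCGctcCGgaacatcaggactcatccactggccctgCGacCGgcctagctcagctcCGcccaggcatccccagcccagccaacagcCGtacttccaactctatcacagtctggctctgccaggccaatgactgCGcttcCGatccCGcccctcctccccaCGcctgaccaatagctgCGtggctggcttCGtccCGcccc
Aim2, chr1:173420354-173420603, plus strand: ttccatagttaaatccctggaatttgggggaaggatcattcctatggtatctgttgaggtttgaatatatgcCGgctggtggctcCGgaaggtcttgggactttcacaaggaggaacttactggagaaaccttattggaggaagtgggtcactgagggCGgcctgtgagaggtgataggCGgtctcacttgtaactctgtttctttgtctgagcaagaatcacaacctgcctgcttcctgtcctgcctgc
These stretches hold 11 CpG for Ifih1, 12 for Ddx58, 15 for Mavs and 4 for Aim2. Over the full 300-base windows, the counts were 14 for Ifih1, 15 for Ddx58, 19 for Mavs and 5 for Aim2, against a median of 7 over all windows. Among the other called sensors, the windows held 17 CpG for Eif2ak2, 10 for Tlr3 and 6, 34 and 12 for the 3 starts of Adar. The Adar start with 34 CpG was the only window of a called sensor above Mavs. Aim2 and the Adar start with 6 CpG had fewer than the median window. The RefSeq start used for Aim2 lies inside the longer span that the deposited table gives for the gene.

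**Figure D2:**
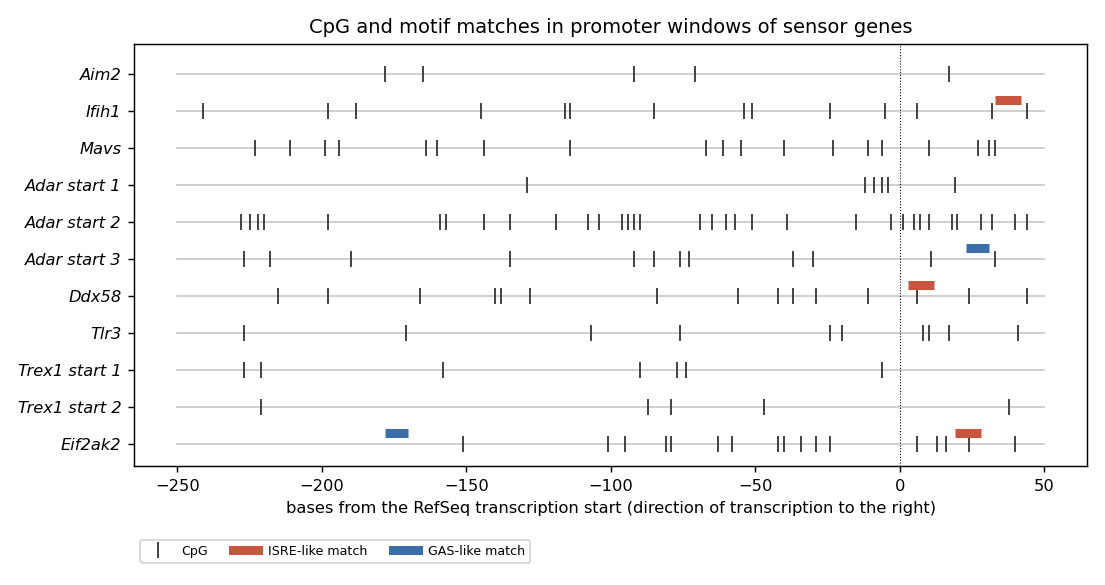
Positions of CpG sites and of the ISRE-like and GAS-like motif matches in the 11 RefSeq promoter windows of 8 sensor genes, by distance from the transcription start in bases. The ISRE-like matches of Ifih1, Ddx58 and Eif2ak2 lie 3 to 42 bases downstream of the start.

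Ddx58 encodes RIG-I, which recognizes RNA with a 5′ triphosphate end. The gene, ENSMUSG00000040296, spans chr4:40203773-40239828 on the minus strand (mm10). Its level was 31.5, 29.7 and 28.0 CPM in control replicates 1 to 3 and 52.5, 55.1 and 57.3 CPM in induced replicates 1 to 3. Every induced library was above every control library, with tight groups. The means were 29.7 ± 1.76 and 55.0 ± 2.39 CPM (SD, n = 3 each), a log2 difference of 0.89 (SE 0.06, adjusted p = 5.25e-10 by edgeR's quasi-likelihood test).

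Ifih1 encodes MDA5, which forms filaments along long double-stranded RNA. The gene, ENSMUSG00000026896, spans chr2:62595798-62646255 on the minus strand. Control libraries had 15.1, 14.9 and 13.7 CPM, and induced libraries 31.0, 34.6 and 33.5 CPM. The lowest induced library lay above the highest control library by more than the range of either group. Induced cells had 2.27-fold more Ifih1 mRNA (14.6 ± 0.767 against 33.1 ± 1.83 CPM, SD, n = 3), a log2 difference of 1.18 (SE 0.08, adjusted p = 2.46e-10 by edgeR).

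Dhx58 encodes LGP2, a helicase without the signalling domains of the other two, which modulates their activity. It had the largest difference of the 10 genes. The gene, ENSMUSG00000017830, spans chr11:100694884-100704271 on the minus strand. Its values were 4.05, 4.13 and 5.01 CPM in control and 16.7, 15.0 and 22.0 CPM in induced libraries. Induced replicate 3 stood above the other induced libraries, and all 3 were clear of the controls. The mean rose 4.06-fold, from 4.40 ± 0.532 to 17.9 ± 3.61 CPM (SD, n = 3), a log2 difference of 2.02 (SE 0.15, adjusted p = 8.21e-10 by edgeR). An antisense gene, Dhx58os, shares 4.31% of the exon bases of Dhx58 and had 25, 28 and 18 control reads against 13, 6 and 7 induced reads. The strand setting of the counting is not given in the sources used here. Dhx58os moved the other way, at a log2 difference of -1.38 (adjusted p = 0.00432 by edgeR), and was named after its values were seen.

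Levels per exon length show how the 3 helicases stood to each other. The length counts all annotated exon bases of a gene, 3272 for Dhx58, 8165 for Ifih1 and 7050 for Ddx58. The deposited FPKM of Dhx58 was 0.277, 0.299 and 0.385 of that of Ddx58 in control libraries and 0.685, 0.588 and 0.826 in induced libraries. The ratio did not overlap between groups. Ifih1 to Ddx58 moved less, from 0.423 ± 0.00943 to 0.519 ± 0.0199 (SD, n = 3), and Dhx58 to Ifih1 went from 0.759 ± 0.135 to 1.35 ± 0.275. In FPKM, Dhx58 was thus below Ifih1 in every control library and above it in every induced library. In CPM, which takes no account of length, Dhx58 stayed below Ifih1 in both groups. The means were 4.40 against 14.6 CPM in control and 17.9 against 33.1 CPM in induced libraries. Each of the 3 ratios gave p = 0.1 in a two-sided exact permutation test, the smallest p that 3 against 3 libraries allow.

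Mavs, which receives the signal of RIG-I and MDA5, was not called. The gene, ENSMUSG00000037523, spans chr2:131234063-131248025 on the plus strand. Control libraries had 44.1, 41.0 and 46.9 CPM and induced libraries 48.5, 43.8 and 47.6 CPM. The groups overlapped. The log2 difference was 0.08 (SE 0.06, adjusted p = 0.261 by edgeR), and the estimate plus or minus 2 SE ran from -0.04 to 0.21, well under the differences of the helicases upstream of it.

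Tlr3 encodes the endosomal receptor for double-stranded RNA, which signals through the adaptor TICAM1 and not through MAVS. The gene, ENSMUSG00000031639, spans chr8:45395665-45411080 on the minus strand. Its values were 6.13, 5.76 and 6.51 CPM in control and 11.4, 12.8 and 12.7 CPM in induced libraries. All induced libraries were higher. The mean went from 6.13 ± 0.377 to 12.3 ± 0.800 CPM (SD, n = 3), a log2 difference of 1.00 (SE 0.12, adjusted p = 4.42e-07 by edgeR). The gene sat on the 2-fold line and fell below it under several settings, for example to 0.96 without control replicate 2.

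**Figure D3:**
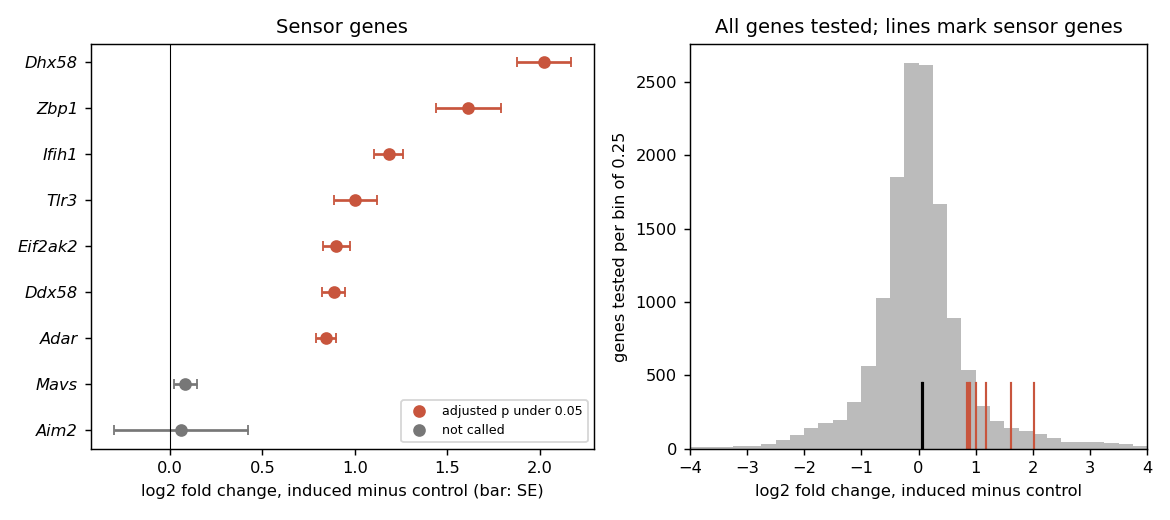
Log2 difference, induced minus control, of the 9 tested sensor genes with bars of 1 SE to each side (left), and the number of all tested genes per bin of log2 difference with lines at the sensors (right). Dhx58 at 2.02 and Zbp1 at 1.62 lie farthest from 0, and Mavs at 0.08 and Aim2 at 0.06 lie in the bulk of the genes.

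The next group acts on double-stranded RNA outside the MAVS route. Zbp1 encodes a sensor of left-handed Z-form nucleic acid that can start necroptosis through RIPK3. The gene, ENSMUSG00000027514, spans chr2:173206612-173218923 on the minus strand. Its control libraries had 3.60, 2.85 and 3.21 CPM and its induced libraries 10.9, 7.26 and 11.5 CPM. Induced replicate 2 was lowest in its group but lay above the highest control library. Zbp1 mRNA was 3.06-fold higher in induced cells (3.22 ± 0.372 against 9.88 ± 2.29 CPM, SD, n = 3), a log2 difference of 1.62 (SE 0.18, adjusted p = 2.36e-07 by edgeR).

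Eif2ak2 encodes the kinase PKR, which binds double-stranded RNA and phosphorylates the initiation factor eIF2α, so that translation slows. The gene, ENSMUSG00000024079, spans chr17:78852564-78882573 on the minus strand. It had 28.7, 27.1 and 29.5 CPM in control and 46.5, 54.9 and 57.7 CPM in induced libraries. The groups did not overlap, and the induced libraries spread more than the controls. The log2 difference was 0.90 (SE 0.08, adjusted p = 5.49e-09 by edgeR), from 28.4 ± 1.23 to 53.0 ± 5.83 CPM (SD, n = 3).

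Adar encodes the deaminase that changes adenosine to inosine in double-stranded RNA and so keeps the cell's own RNA from being taken for foreign. The gene, ENSMUSG00000027951, spans chr3:89715022-89753446 on the plus strand. Control values were 35.4, 33.8 and 36.1 CPM, and induced values 63.0, 61.4 and 64.7 CPM. These were the tightest libraries among the called sensors. The mean rose from 35.1 ± 1.17 to 63.0 ± 1.62 CPM (SD, n = 3), a log2 difference of 0.85 (SE 0.06, adjusted p = 1.69e-10 by edgeR). Gene-level counts do not separate the interferon-inducible transcript of Adar from the constitutive one. Chrnb2, on the other strand, shares 16.8% of the exon bases of Adar but held at most 18 reads in a library.

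Of the genes on the side of DNA, Trex1 could not be compared and Aim2 was not called. Trex1 encodes the main cytosolic DNA exonuclease and lies at chr9:109057933-109059734 on the minus strand (ENSMUSG00000049734). It had 0 reads in all 6 libraries, which here does not show absence. In GENCODE M21 all of its 1147 exon bases also belong to exons of Atrip on the same strand, where a read cannot be assigned to 1 gene. Atrip itself had 284 to 334 reads in control and 273 to 317 in induced libraries (log2 difference 0.04, adjusted p = 0.712 by edgeR) and was named for this overlap alone.

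Aim2 encodes a receptor for cytosolic double-stranded DNA that assembles an inflammasome, the complex that activates caspase-1. The gene, ENSMUSG00000037860, spans chr1:173350879-173466040 on the plus strand. It had 10, 16 and 14 reads in control and 13, 15 and 12 reads in induced libraries. At about 0.7 CPM the counts of the groups overlapped fully. The log2 difference was 0.06 (SE 0.36, adjusted p = 0.895 by edgeR), and plus or minus 2 SE it ran from -0.67 to 0.79. A difference of the size of Adar or Ddx58 lay just outside that interval, and smaller ones were not detectable at this depth.

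Per exon length, and leaving out Trex1, Mavs was the most abundant of the 9 other genes in both groups. It stood at 13.0 ± 0.903 FPKM in control and 13.9 ± 0.771 FPKM in induced cells (SD, n = 3). In control cells Eif2ak2 followed at 5.51 ± 0.249 FPKM, then Adar (4.28 ± 0.151) and Ddx58 (4.18 ± 0.244), whose libraries overlapped, then Ifih1 at 1.77 ± 0.0905 FPKM. Dhx58 (1.33 ± 0.163 FPKM) and Tlr3 (1.17 ± 0.0741 FPKM) overlapped too, above Zbp1 at 0.904 ± 0.105 and Aim2 at 0.191 ± 0.0439 FPKM. The induced order was different for the low genes. Eif2ak2 reached 10.4 ± 1.13 FPKM, Ddx58 (7.78 ± 0.338) and Adar (7.75 ± 0.209) again overlapped, and Dhx58 at 5.46 ± 1.11 FPKM now stood above Ifih1 at 4.04 ± 0.219 FPKM. Zbp1 (2.79 ± 0.650 FPKM) and Tlr3 (2.36 ± 0.151 FPKM) overlapped, and Aim2 stayed last of the genes with reads at 0.200 ± 0.0227 FPKM. This order depends on the annotated exon length. In CPM, Mavs was also highest in control cells, at 44.0. In induced cells its 46.6 CPM lay below Adar (63.0), Ddx58 (55.0) and Eif2ak2 (53.0).

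The sensors did not vary alike within the induced group. Induced replicate 3 was the highest library for 5 genes, Ddx58, Dhx58, Zbp1, Eif2ak2 and Adar. Replicate 2 was the highest for Ifih1, Tlr3 and Aim2 and the lowest for Dhx58, Mavs, Zbp1 and Adar. The SD of log2 values in induced libraries was 0.343 for Zbp1 and 0.274 for Dhx58, against a median of 0.103 over all genes tested. Dhx58 and Zbp1, the sensors with the largest differences, thus also had the widest induced groups. Ifih1 and Tlr3, next in size of difference, had SD of 0.080 and 0.092, below that median.

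**Figure D4:**
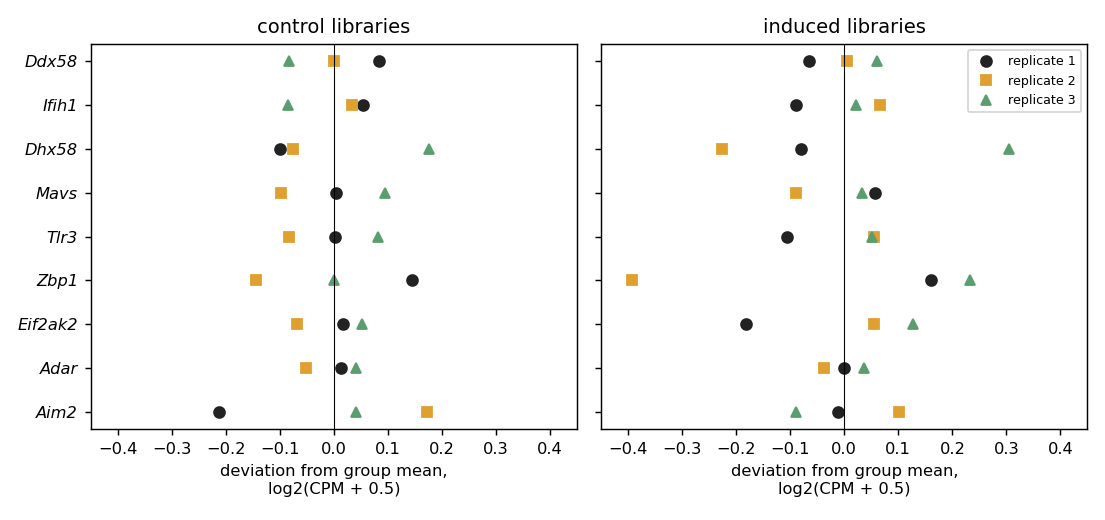
Deviation of each library from its group mean, on log2(CPM + 0.5), for the 9 sensor genes tested. Zbp1 in induced replicate 2 lies lowest, at -0.39, and Dhx58 in induced replicate 3 lies at 0.31.

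Around the sensors, 11 lists of pathway genes were counted, 147 genes in all, of which 109 were tested, 46 were higher and 32 lower in induced cells. These counts and those of each list stand beside 32.6% higher and 32.2% lower over all genes tested. Helpers of RNA sensing were 9 of 20 higher and 6 lower, 75.0% called against 64.8% over all genes, with a median log2 difference of 0.16. The largest rises were those of Ddx60, a helicase relative (0.809 ± 0.0996 to 3.81 ± 0.655 CPM, SD, n = 3, log2 difference 2.23), and Nlrc5, a regulator of MHC class I genes and of RIG-I signalling (2.39 ± 0.185 to 10.7 ± 1.46 CPM, 2.15). Zcchc3, an RNA-binding cofactor, rose by 1.25. Trim25, the ubiquitin ligase for RIG-I, rose by 0.68 and was chosen after its values were seen. Among the 6 lower genes were Dhx9 (-0.45) and Prkra (-0.36), also chosen after their values were seen.

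Between MAVS and interferon, 5 of 16 genes were higher, 2 lower and 9 not called, with a median of 0.09. The share called, 43.8%, was below the 64.8% of all genes, and the share higher was near the 32.6% of all genes. Irf7, the interferon-inducible factor, stood apart. It had 55, 61 and 56 reads in control and 434, 374 and 409 in induced libraries, a log2 difference of 2.88 (SE 0.12, adjusted p = 2.45e-13 by edgeR). Traf6, a ubiquitin ligase, rose by 0.64, and Tbkbp1, a TBK1-binding protein, fell by 0.60. Irf3 and Tbk1, chosen after their values were seen, had log2 differences of 0.11 and 0.13 and were not called (adjusted p = 0.182 and 0.103 by edgeR).

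Of 21 interferon ligand genes, none passed the filter. They held 3 reads in all control libraries together and 5 in all induced libraries, and 16 of them had none. Ifnb1 had 0 control and 2 induced reads. With 3 counts as the limit, a library in which a gene had 0 reads could hide at most 0.159 CPM, counting error only. Receptors and JAK-STAT genes were 7 of 12 higher and 2 lower, 75.0% called against 64.8% of all genes, with a median of 0.32. Stat2, a transcription factor of the interferon response, went from 30.5 ± 2.54 to 85.4 ± 7.74 CPM (SD, n = 3), a log2 difference of 1.49. The kinase Jak2 moved the other way, from 117 ± 2.79 to 50.7 ± 5.25 CPM, a log2 difference of -1.21. Irf9, chosen after its values were seen, rose by 0.87.

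The endosomal list was split, with 3 genes higher and 3 lower of 6 tested and a median of -0.03. The receptors Tlr7, Tlr8, Tlr9 and Tlr13 had 8 control and 6 induced reads in all and were not tested, so Tlr3 was the only endosomal nucleic acid receptor tested. Its partners differed in direction. Ctsl, a protease that cleaves these receptors, rose by 1.00, with 26.8% of its exon bases overlapped on the other strand. Unc93b1, which carries them to the endosome, fell by 0.58, and the protease Lgmn fell by 0.42. Ticam1, the adaptor of TLR3, fell by 0.29 (adjusted p = 0.000558 by edgeR) and was chosen after its values were seen.

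Cytosolic DNA sensing had 5 genes higher, 6 lower and 1 not called of 12 tested, 91.7% called against 64.8% of all genes, with a median of -0.01. The rises were all in the Ifi200 family, close copies whose reads can be assigned wrongly, among them Ifi205 (log2 difference 1.65) and Ifi203 (1.02). Xrcc6, a Ku subunit that binds DNA ends, went from 55.6 ± 2.93 to 27.9 ± 1.30 CPM (SD, n = 3) and fell by 1.00 on the log2 scale. It lies on chromosome 15, where the median over 561 tested genes was -0.24. The cyclic GMP-AMP synthase cGAS and STING, the receptor for cyclic GMP-AMP, were chosen after their values were seen. Mb21d1 (cGAS) went from 5.43 ± 0.661 to 2.97 ± 0.330 CPM (SD, n = 3, log2 difference -0.87), and Tmem173 (STING) from 72.5 ± 1.56 to 39.9 ± 2.75 CPM (-0.86).

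The inflammasome list holds shared components, substrates and other inflammasome sensors besides AIM2. Of its 11 genes 6 were tested, all of them called, 4 higher and 2 lower, and the median was 1.19. Casp1 and Pycard passed the filter on low counts only through the induced libraries. Their calls and this median therefore depend in part on the filter. Casp1 had 0 reads in every control library and 37, 18 and 25 in induced libraries, at least 27.8-fold higher taking 3 counts over the control group as the floor (adjusted p = 1.25e-06 by edgeR). Pycard, the adaptor between AIM2 and caspase-1, had 1 control read in all against 26, 20 and 47 induced reads. Its pooled ratio was 96.9 with a 95% exact interval of 17.0 to 3870, for counting error only, and 12.8% of its exon bases are overlapped on the other strand. Il18, a substrate of caspase-1, rose by 1.31.

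The 4 necroptosis partners of ZBP1 gave 1 call, Cflar, an inhibitor of caspase-8, which rose by 0.45 (median of the list 0.28). Leaving out induced replicate 2 made this 2 calls. Ripk3 and Mlkl, chosen after their values were seen, had adjusted p = 0.139 and 0.422 by edgeR. Ripk3 averaged 1.42 ± 0.235 CPM without and 2.04 ± 0.877 CPM with induction (SD, n = 3).

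Genes of eIF2 stress translation, the pathway of PKR, were 7 of 13 higher and 2 lower, against 32.6% and 32.2% of all genes. In either direction 69.2% were called, against 64.8% of all genes, and the median was 0.16. Ddit3 (CHOP), a stress-induced transcription factor, went from 19.0 ± 1.74 to 85.5 ± 1.52 CPM (SD, n = 3, log2 difference 2.17). Ppp1r15a (GADD34), which returns the phosphatase to eIF2α, rose by 1.02 and Dnajc3, an inhibitor of PKR, by 0.99. The other kinases of this substrate are PERK (Eif2ak3), GCN2 (Eif2ak4) and HRI (Eif2ak1), of which Eif2ak3 rose by 0.37, Eif2ak4 fell by 0.45 and Eif2ak1 was not called at -0.02, all named after their values were seen.

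RNA editing and double-stranded RNA binding genes, the list nearest to Adar, were 3 of 9 tested higher and 5 lower, with a median of -0.17. Adarb1, the second active deaminase, rose by 0.68 and the binding protein Strbp by 0.84. Nucleases that limit self nucleic acid, the list nearest to Trex1, were 2 of 11 tested higher and 4 lower, with a median of -0.09. Rnaseh2b fell by 0.58 and Rnaseh2a by 0.46, subunits of the enzyme that removes ribonucleotides from DNA. Dnase2a, the lysosomal DNase, rose by 0.43, with 30.0% of its exon bases overlapped on the other strand.

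**Figure D5:**
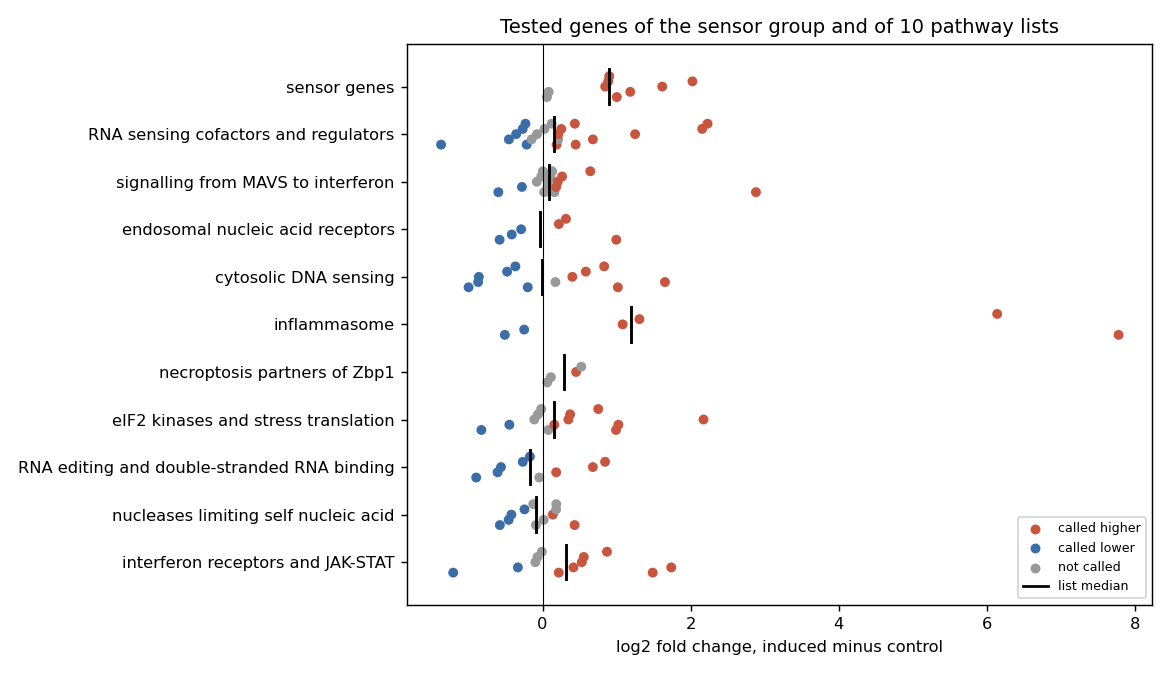
Log2 difference, induced minus control, of each tested gene (points) in the sensor list and the 10 pathway lists with tested genes, with a line at each list's median. The 2 points past 6 are Pycard and Casp1, whose fitted values depend on the prior count because control reads were 1 and 0. The sensor list has a median of 0.90, and the editing and nuclease lists have medians of -0.17 and -0.09.

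The genes whose profile over the 6 libraries was nearest to the mean of the 9 tested sensors were Habp4, Fam3a, Sgcb, Ube2w and Rilp, out of 13406 candidates. Their distances, as the root of summed squared log2 deviations, were 0.0730, 0.0877, 0.0948, 0.0958 and 0.104. Habp4 averaged 27.0 ± 1.51 CPM without and 50.6 ± 2.39 CPM with induction (SD, n = 3). Rilp was scarce, at 3.05 ± 0.0431 and 6.11 ± 0.198 CPM. With 3 libraries in each of 2 groups, such likeness rests mostly on the size of the group difference, which ran from 0.88 to 1.00 on the log2 scale in these genes.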

How the data were processed

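RNA sequencing libraries were prepared by the authors and, per the submitters' processing notes, processed with HISAT2 2.0.5, featureCounts 1.5.0-p3 and DESeq2 1.16.1 on mm10. The authors deposited raw counts per gene and FPKM values in a single table. FPKM was used for levels between genes. The deposited fold changes, p-values, normalized means and Gene Ontology tables were not used. Sensor coordinates matched GENCODE M21, and promoter windows came from RefSeq (GRCm38.p6).

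Counts were tested in R 4.3.3 with edgeR 4.0.16 (filterByExpr, minimum count 10, minimum total 15, TMM, two-sided quasi-likelihood test, Benjamini-Hochberg adjustment at 0.05 over 14246 genes). Alternatives used DESeq2 1.42.0 and limma 3.58.1. The test was checked on simulated counts. In these, few genes changed, as many up as down, so the scaling was not checked under changes as wide as those here. Members and lists were chosen with earlier results of these data known. Besides the sensors, the text names up to 3 called genes per list with the largest change, given 1 CPM or more in the higher group, and the 5 genes nearest in profile, distances being taken on log2(CPM + 0.5). Some genes that this rule names are not reported here. Other genes are said to be chosen after their values were seen. Replicate pairs differed by more than sampling noise (chi-square per degree of freedom 2.56 to 8.91) and none was merged.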

Additional observations from a re-analysis of the deposited data

How the results depend on the processing

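Over 15 alternatives, each run for every result it could give, all 134 values of single sensor genes kept their direction where called. All kept their side of the threshold too, and 7 sensors were called each time. The alternative with an adjusted p of 0.01 read the main fit again, so its log2 differences could not change. The log2 difference ranged from 1.46 to 2.13 for Dhx58, 0.98 to 1.80 for Zbp1, 0.87 to 1.23 for Ifih1 and 0.73 to 0.87 for Adar. That of Mavs was 0.03 to 0.13 (adjusted p 0.0650 to 0.699) and that of Aim2 -0.10 to 0.22, with Aim2 dropped by the stricter filter. Sensors changed at least 2-fold, 4 in all, were 1 under limma on log2(FPKM + 1), a scale that shrinks low genes, 3 with library totals alone or limma on log2(FPKM + 0.1), and 3 to 4 leaving out a library. Under limma on log2(FPKM + 1), genes at least 2-fold changed were 1032, and the list medians were -0.014 (endosomal), 0.49 (inflammasome) and 0.16 (necroptosis). Without the filter, the median was 1.35 for the inflammasome and -0.039 for RNA editing. Library totals alone gave -0.071 for the endosomal list and 0.28 for interferon receptors, moved the median of all genes to -0.04 while 46.5% in place of 50.3% of calls were rises. Leaving out a library, calls were 8430 to 9275 genes, necroptosis calls 1 to 2 with a median of 0.11 to 0.32, and the median was 0.27 to 0.36 for interferon receptors, -0.07 to 0.03 for DNA sensing and -0.16 to 0.02 for nucleases. The cause of these shifts was not tested. Same-numbered libraries did not deviate together (correlations -0.03, -0.03 and 0.03), and a replicate block left 7 sensors and 9063 genes called. Depth limits Aim2, the interferon ligands and 5 untested inflammasome genes, while Trex1 is limited by read assignment.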
